A study of Mus musculus with 16 samples.

Results

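The genes described here encode the subunits of the mouse proteasome and its activators, taken as every row of the count tables whose symbol was Psma, Psmb, Psmc, Psmd or Psme followed by a number. There were 43 such genes among the 22114 genes listed, and 42 of them passed the filter on low counts and were tested in every comparison. By role they were 8 alpha subunits and 7 constitutive beta subunits of the 20S core, 3 immunosubunits, the thymus-specific Psmb11, 6 ATPases and 3 other base subunits of the 19S particle, 8 lid subunits, 3 assembly chaperones that carry Psmd names, and 4 activators. RNA was sequenced from sorted CD4-CD8- double-negative 3 (DN3) thymocytes, the stage just before beta-selection, in 15 libraries that fell into 2 separately counted experiments. All mice were on a C57BL/6J background, given as C57BL/6 in the labels. In the label-retention experiment they were H2B-GFP;Lmo2Tg animals, which carry the Lmo2 oncogene under the CD2 promoter and a doxycycline-inducible histone-GFP reporter. They were given doxycycline for 6 weeks and then chased for 2 weeks without it at about 2 months of age, and DN3 cells that had kept the label (GFPhi, slowly dividing) were compared with those that had diluted it (GFPlo), with 3 libraries each. In the genotype experiment total DN3 cells came from 6-week-old mice, with no treatment named, that were wild type (WT, 3 libraries), p21-/- (2), Lmo2Tg (2) or Lmo2Tg;p21-/- (2), where p21 is the cell cycle inhibitor encoded by Cdkn1a. The Lmo2Tg libraries are called a and b because their columns could not be tied to a single replicate number.

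The proteasome degrades proteins that carry ubiquitin chains. The 20S core is a barrel of alpha rings, which gate the entrance, around beta rings, which hold the proteolytic sites. The 19S particle binds, deubiquitinates and unfolds the substrate and feeds it into the core. Psmb8, Psmb9 and Psmb10 are interferon-inducible and take the places of the constitutive catalytic subunits Psmb5, Psmb6 and Psmb7 in the immunoproteasome, which is abundant in lymphoid cells, whereas Psmb11 belongs to the thymoproteasome of cortical epithelial cells. Psme1 and Psme2 form the interferon-inducible activator PA28 alpha-beta, Psme3 the nuclear PA28 gamma and Psme4 the large activator PA200.

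Total counts ran from 26861394 to 31106213 in the label-retention libraries and from 13864936 to 16837667 in the genotype libraries, and all levels below are CPM, the count of a gene relative to the total of its library after TMM scaling. Cdkn1a stood at 4.35 and 3.5 CPM in the Lmo2Tg;p21-/- libraries against 32.8 and 26.3 in Lmo2Tg, and at 14.3 and 17.7 in p21-/- against 36.5 to 49 in WT, so that the targeted gene was lower in the deleted groups without being at 0. Lmo2 was at most 0.306 CPM in WT and p21-/- libraries and at least 29.5 CPM in the others. GFPhi replicate 3 stood apart: Lmo2 reached 285 CPM in it against 53.8 and 29.5 in the other two GFPhi libraries, and Cdkn1a was 6.56 CPM against 35.8 and 29.9. The main GFPhi results are therefore given with and without that library. All 10 DN3 markers were detected, with summed levels of 8560 to 10700 CPM in the label-retention libraries, 10200 to 11200 in WT and p21-/-, and 7100 to 7770 in Lmo2Tg and Lmo2Tg;p21-/-. Of the 10, 8 were called lower in Lmo2Tg than in WT, against 16.9% of all genes. In Lmo2Tg;p21-/- against p21-/- 8 were also called lower, against 14.4%, and 0 were called higher in either comparison. The 8 thymic epithelial markers summed to 128 to 145 CPM in GFPhi and 82.4 to 92.4 in GFPlo. Most of that sum was Ly75, at 60.4 to 84.4 CPM in GFPhi and 60.7 to 65.7 in GFPlo, and Epcam, at 36.8 to 79.5 and 15.7 to 22.7. Of the 4 tested, Prss16, at 0.404 to 0.614 CPM in GFPhi against at most 0.0699 in GFPlo, and Epcam, 3-fold higher, were called (edgeR adjusted p = 0.02 and 0.023). Ly75 and Ccl25, with log2 values of 0.24 and -0.15, were not called. The defining gene Foxn1 was at most 0.0699 CPM in any library. The part of such cells in the results below was not tested.

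Within the DN3 cells, the levels per kilobase of exon differed widely between subunits. In WT cells the highest was Psma6, a core alpha subunit, at 159 CPM per kilobase, followed by Psme1 at 107, Psme3 at 103 and the ATPase Psmc5 at 97.2. Psme4 stood low in this order at 15, and the chaperones Psmd5 at 9.03 and Psmd9 at 5.53 were lower still. Psma8, the alpha subunit known from testis, was at 1.98 ± 0.321 CPM in WT (SD, n = 3), and Psmb11 did not exceed 0.191 CPM in any library. Psmb11 was therefore not tested. The 42 tested members together took 0.5 to 0.646% of all counts, lowest in Lmo2Tg;p21-/- replicate 1 and highest in WT replicate 3. Whether a lower value came from fewer cells of a kind or from less RNA per cell cannot be told apart in such bulk libraries.

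The label-retention comparison asks how slowly dividing cells differ from dividing ones, and the genotype comparisons ask what p21, which restricts the cell cycle, contributes in cells with and without the oncogene. With all libraries fitted, Psme4 was the only member both called and changed by more than 2-fold (edgeR's quasi-likelihood test, Benjamini-Hochberg adjusted p under 0.05, with no minimum fold for a call). Between GFPhi and GFPlo 1 of 42 members was called, against 14.9% of all genes tested, and it was higher, as were 5.37% of all genes. Without GFPhi replicate 3 the count was 20 (47.6%), against 41.3% of all genes. Of these 20 members 19 were higher in GFPhi, against 19.5% of all genes, and 1 was lower, against 21.7%. Between Lmo2Tg and WT 3 of 42 were called (7.14%), against 36.6% of all genes, with 1 higher against 19.7% and 2 lower against 16.9%. Between Lmo2Tg;p21-/- and p21-/- 8 were called (19%), against 30.7%, with 1 higher against 16.3% and 7 lower against 14.4%. Between Lmo2Tg;p21-/- and Lmo2Tg edgeR called 0 members, against 6.94% of all genes, while 10 members had an unadjusted p under 0.05, against 25.5%, and DESeq2 called 3 and limma-voom 0. Between p21-/- and WT edgeR called 0, against 0.11%, with 0 at an unadjusted p under 0.05, against 3.3%, and DESeq2 and limma-voom called 0. The interaction of the transgene with the p21 deletion gave 0 called members by edgeR, against 1.38%, with 4 at an unadjusted p under 0.05, against 18.1%, and 0 by DESeq2 or limma-voom. Wherever a member was called with all libraries fitted, the share of members called was below that of all genes. The genotype comparisons share groups (WT, p21-/-, Lmo2Tg and Lmo2Tg;p21-/- each enter more than 1), so values in them are set side by side and are not independent.

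**Figure D1:**
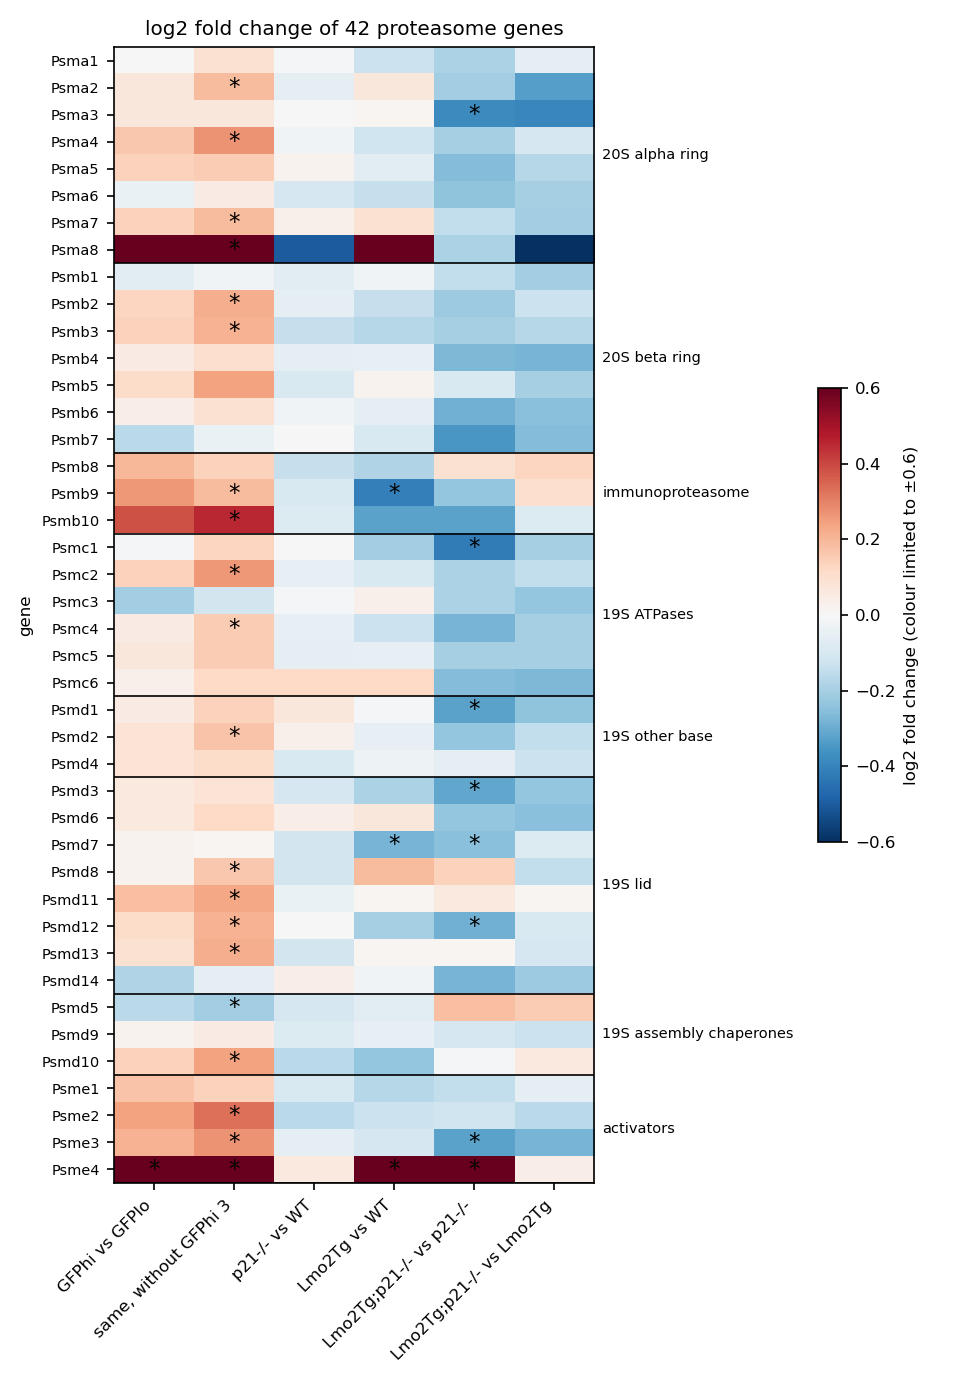
Log2 fold changes of the 42 tested proteasome genes (rows, grouped by role) in 6 columns, namely 5 comparisons and GFPhi against GFPlo without GFPhi replicate 3, with red for higher and blue for lower and colour limited to ±0.6. Asterisks mark genes called at an adjusted p under 0.05, and Psme4 has one in each comparison that sets Lmo2Tg-bearing against non-transgenic cells, where its values were 1.10 and 1.08.

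Among members called with all libraries fitted, the activator Psme4 changed most. It was 242 and 298 CPM in the Lmo2Tg libraries and 133, 130 and 116 CPM in WT. It was 247 and 307 CPM in Lmo2Tg;p21-/- and 134 and 128 CPM in p21-/-. All 4 transgenic libraries thus lay above all 5 non-transgenic ones, whether or not p21 was present. Markers of other cells moved with the transgene as well. The 4 later alpha-beta thymocyte markers found summed to 119 to 134 CPM in Lmo2Tg against 47.6 to 51.9 in WT, and to 107 to 123 in Lmo2Tg;p21-/- against 38.2 to 61 in p21-/-, with Cd8a and Cd5 called higher in both comparisons. Cd8b1 was called higher only in the first, at log2 0.89 against 0.37 in the second. Cd4 was called in neither, at 0.24 and -0.80. Of the 8 myeloid and dendritic markers, which summed to 54.8 to 61.7 CPM in Lmo2Tg and 62.3 to 65.4 in WT, Itgam, Itgax and Tyrobp were called higher in Lmo2Tg and Lyz2 lower. The part of such cells in the level of Psme4 was not tested. The rise of Psme4 was 2.14-fold in Lmo2Tg over WT (log2 1.10, SE 0.11, edgeR adjusted p = 4.4e-05) and 2.12-fold in Lmo2Tg;p21-/- over p21-/- (log2 1.08, SE 0.13, edgeR adjusted p = 0.00012). The interaction was -0.02 (SE 0.17, edgeR adjusted p = 0.97), and both calls held under every alternative run. Psme4 lies at chr11:30771726-30880361 on the plus strand (mm10), overlaps no protein-coding gene on either strand, and has 8382 bases of exon.

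In the label-retention experiment, where every cell carried the transgene, Psme4 was 272, 262 and 181 CPM in GFPhi and 160, 136 and 137 in GFPlo. The GFPhi libraries lay above the GFPlo ones, with replicate 3 nearest to them. The difference was 1.65-fold (log2 0.72, SE 0.17, edgeR adjusted p = 0.04) and 1.86-fold without GFPhi replicate 3 (log2 0.89, SE 0.08, edgeR adjusted p = 0.00038). The call was lost when any other single library was left out, with edgeR adjusted p from 0.077 to 0.16 and log2 values from 0.62 to 0.80. Psme4 was also not called over genes of at least 10 CPM, at an edgeR adjusted p = 0.051.

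**Figure D2:**
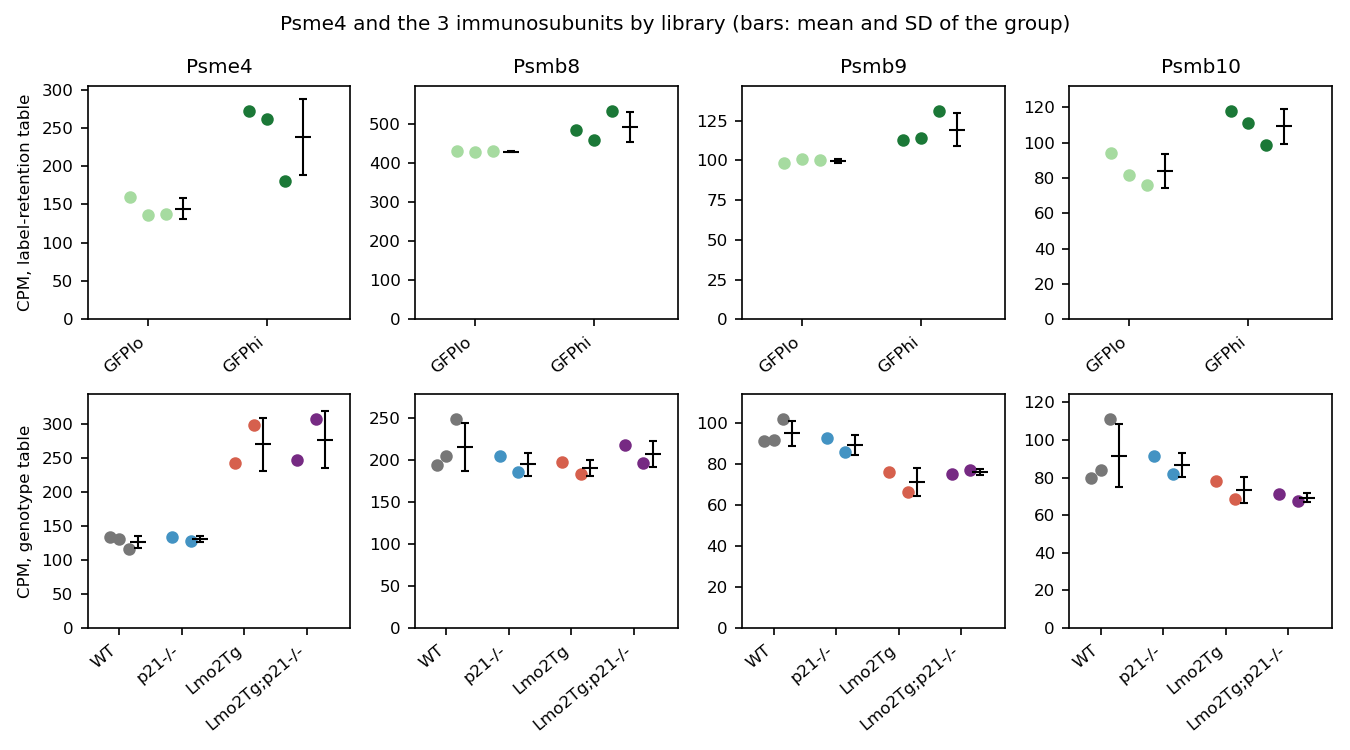
CPM of Psme4, Psmb8, Psmb9 and Psmb10 in each library (points), with the mean and SD of each group beside them, for the label-retention table (top) and the genotype table (bottom), whose levels are not comparable with each other. Psme4 lies at 242 to 307 CPM in the Lmo2Tg and Lmo2Tg;p21-/- libraries and at 116 to 134 CPM in WT and p21-/-.

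Since Psme4 stood apart from the other members, the sequence upstream of its start is shown, from the RefSeq promoter table (GRCm38.p6, the assembly of mm10), at chr11:30771525-30771728 on the plus strand. Capitals mark the letters CCGGAAG, which hold the core that ETS factors recognise and which end 47 bases before the RefSeq start and run past the first base of the gene in the other annotation.
Psme4: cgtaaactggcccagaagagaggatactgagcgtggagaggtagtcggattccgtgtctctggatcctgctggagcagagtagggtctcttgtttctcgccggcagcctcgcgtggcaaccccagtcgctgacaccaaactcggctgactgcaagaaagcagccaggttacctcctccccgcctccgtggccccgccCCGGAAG
Promoters, 39 in all, were found for 36 of the 43 members. CCGGAAG or its reverse complement stood within the 250 bases upstream in 12 of the 39 (30.8%), against 6.9% of all 32851 promoters in the table. These belonged to 11 genes. The 11 were Psma6, Psmc1, Psmc2, Psmc6, Psmd2, Psmd4, Psmd6, Psmd11, Psmd12, Psme3 and Psme4, so the letters occurred in members that were lower in Lmo2Tg;p21-/- cells, such as Psme3, as well as in Psme4. The antioxidant response core TGACNNNGC, the letters that Nrf factors bind, stood in 5 of the 39 promoters on either strand (12.8%), against 10.2% of all promoters. CCAAT stood in 14 of the 39 (35.9%) against 33.8% of all promoters. The interferon-gamma activated letters TTCNNNGAA stood in 1 of the 39, that of Psmb8 (2.56%), against 7.0% of all promoters. GAAANNGAAA stood in 3 (7.69%), those of Psmb3, Psmd4 and Psmd9, against 3.0%. Both strands were searched for each of these letters, each was counted on its own even where matches overlapped, and a match is not a tested binding site.

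The other activators had another pattern. Psme3 was 219 and 247 CPM in Lmo2Tg;p21-/- against 290 and 293 in p21-/-, a log2 fold change of -0.32 (SE 0.09, edgeR adjusted p = 0.023). Against Lmo2Tg, with 265 and 301 CPM, it gave -0.28 (edgeR adjusted p = 0.096), and the WT libraries stood at 293, 305 and 316 CPM. Psme1 and Psme2 were called in none of the 4 genotype comparisons between groups, with log2 values from -0.17 to -0.06. In the label-retention experiment all 3 lay higher in each GFPhi than in each GFPlo library. Psme2 was 60.4, 58.4 and 50.4 CPM in GFPhi and 48.9, 45.5 and 48.5 in GFPlo, a log2 difference of 0.24 (SE 0.09, edgeR adjusted p = 0.11). Psme3 stood at 0.21 and Psme1 at 0.17 (edgeR adjusted p = 0.11 and 0.12). Without GFPhi replicate 3, Psme2 at 0.33 and Psme3 at 0.27 were called (edgeR adjusted p = 0.0063 and 0.014), and Psme1 at 0.14 was not (edgeR adjusted p = 0.084).

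The 3 immunosubunits were the other set in which no GFPhi library overlapped a GFPlo library. Psmb8 was 485, 459 and 533 CPM in GFPhi and 430, 427 and 430 in GFPlo. Psmb9 was 113, 114 and 131 CPM against 98.4, 101 and 100, and Psmb10 was 118, 111 and 98.7 CPM against 94.4, 81.5 and 75.9. GFPhi replicate 3 was highest for Psmb8 and Psmb9 and lowest of its group for Psmb10. None passed the test with all libraries: the log2 differences were 0.20 (SE 0.07), 0.26 (SE 0.07) and 0.38 (SE 0.11), with edgeR adjusted p = 0.11, 0.067 and 0.064. Without GFPhi replicate 3, Psmb9 at 0.19 and Psmb10 at 0.45 were called (edgeR adjusted p = 0.018 and 0.0095) and Psmb8 at 0.14 was not (edgeR adjusted p = 0.055). In all, 13 of 42 members lay higher in every GFPhi library, against 19.6% of all genes, and 1, the ATPase Psmc3, lay lower in every one, against 21.7%. The 7 immunosubunits and activators made up 7 of those 13.

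Some markers of B cells, which also express immunosubunits, were higher in GFPhi too. Of 5 tested, Ms4a1, Cd79a and Pax5 were called higher and Cd79b and Blnk were not, with log2 values of 0.04 and -0.26. The summed level over 6 genes was 25.9 to 43.0 CPM in GFPhi and 23.8 to 26.7 in GFPlo, which overlapped, and Ms4a1, the most changed of them, was 1.87, 7.58 and 2.23 CPM in GFPhi against at most 0.0322 in GFPlo. Summed myeloid and dendritic markers (8 genes) went the other way, at 46.6 to 50.4 CPM against 62.4 to 65.7. Most of that sum was Cst3, at 37.7 to 40.8 CPM in GFPhi and 49.4 to 54.3 in GFPlo. The 5 genes of the list tested with all libraries all lay below 0. Csf1r, not among those tested, was 0.441, 1.02 and 0.335 CPM in GFPhi and at most 0.037 in GFPlo. The part of either cell type in the immunosubunit values was not tested.

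In the genotype experiment Psmb9 was the only immunosubunit called. It was 76.3 and 66.4 CPM in Lmo2Tg and 91.3, 91.9 and 102 in WT, with no overlap, and fell by 0.41 on the log2 scale (SE 0.09, edgeR adjusted p = 0.0042). It was 75.1 and 77.4 CPM in Lmo2Tg;p21-/- and 93 and 86.1 in p21-/-, a log2 difference of -0.23 that did not pass the test (edgeR adjusted p = 0.088). Psmb10 stood at -0.32 in Lmo2Tg against WT and at -0.32 in Lmo2Tg;p21-/- against p21-/- (edgeR adjusted p = 0.08 and 0.12). Psmb8 stood at -0.18 and 0.09 (edgeR adjusted p = 0.22 and 0.6). Psmb9 overlaps Tap1 on the opposite strand, whose level was 146 and 127 CPM in Lmo2Tg and 145 to 153 in WT, and reads of the pair cannot be told apart if strand was not used in counting, as the name of this table may mean. Summed B-lineage markers were at 18.1 to 23.5 CPM in Lmo2Tg against 33.1 to 40.1 in WT, and at 21.3 to 24.0 in Lmo2Tg;p21-/- against 30.2 to 36.2 in p21-/-. Most of these sums was Cd79b, called lower in both comparisons, with log2 values of -0.95 and -0.61. The other tested markers, Cd79a and Blnk, were called in neither. They stood at 1.00 and 0.95 in the first comparison and at -0.31 and 0.74 in the second. The part of B cells in the Psmb9 values was not tested.

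The ratio of each immunosubunit to the constitutive subunit it replaces, taken within a library, needs no scaling between libraries. The log2 ratio of Psmb10 to Psmb7 was -0.19 ± 0.11 in GFPhi and -0.74 ± 0.22 in GFPlo (SD, n = 3 each), a difference of 0.55 with no overlap. By a two-sided exact permutation test p was 0.1, the smallest that 3 against 3 libraries allow, and 0.38 after adjustment over the 15 ratio tests. Psmb7 itself was 135, 137 and 104 CPM in GFPhi and 135, 138 and 146 in GFPlo, and lies on chromosome 2, where all 923 genes tested had a median log2 fold change of -0.18. The difference was 0.49 without GFPhi replicate 3. Psmb9 to Psmb6 differed by 0.22, also with no overlap, and by 0.10 without GFPhi replicate 3. Psmb8 to Psmb5 differed by 0.10 with overlap, and by -0.11 without GFPhi replicate 3.

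In Lmo2Tg cells the ratio of Psmb8 to Psmb5 was 2.06 and 1.94 on the log2 scale against 2.19, 2.21 and 2.20 in WT, a difference of -0.20. Psmb9 to Psmb6 was -0.42 and -0.83 in Lmo2Tg and -0.18, -0.24 and -0.39 in WT, a difference of -0.36 in which library b lay farther out. In Lmo2Tg;p21-/- both ratios lay above those of Lmo2Tg, by 0.32 and 0.35. With 2 libraries against 3 the exact permutation test cannot go below p = 0.1, and with 2 against 2 not below 0.33, so none of these ratios could pass. The ratios of Psmb10 to Psmb7 overlapped between all genotypes compared.

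**Figure D3:**
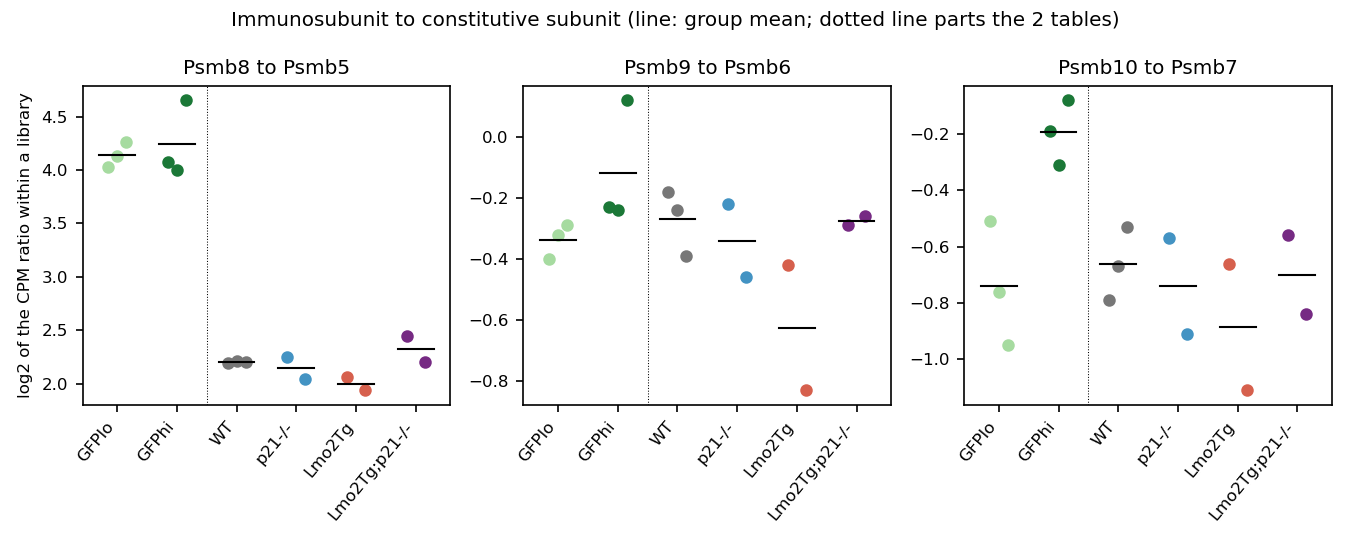
Log2 of the CPM ratio of each immunosubunit to its constitutive partner within a library (points) and the mean of each group (lines), with a dotted line between the tables. The ratio of Psmb10 to Psmb7 lies at -0.31 to -0.08 in GFPhi and at -0.95 to -0.51 in GFPlo.

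The constitutive subunits, 35 genes of the core without Psma8, the 19S particle, its chaperones and Psme3, shifted together from library to library. Relative to the mean of the group means, their median was 0.10 and 0.12 on the log2 scale in GFPhi replicates 1 and 2 but -0.13 in replicate 3. The GFPlo libraries lay between, at -0.05 to -0.01. Summed over the alpha and beta subunits, GFPhi stood at 1660, 1670 and 1420 CPM and GFPlo at 1530, 1520 and 1600, and over the 19S genes GFPhi stood at 2880, 2920 and 2450 CPM and GFPlo at 2650, 2700 and 2760. GFPhi replicates 1 and 2 were thus the highest libraries in both sums and replicate 3 the lowest, whereas replicate 3 lay on the side of its group for the immunosubunits and Psme4. Over all 42 members the median log2 fold change of GFPhi over GFPlo was 0.07, against 0.02 for all genes, and 0.15 without GFPhi replicate 3, against 0.01. It was 0.03 without GFPhi replicate 2. Without GFPhi replicate 3, 30 of 42 members lay higher in both remaining GFPhi libraries than in each GFPlo library, against 32.7% of all genes. In the same libraries 2 lay lower, against 32.9%.

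Among the alpha and beta subunits of the core, 0 of 15 were called between GFPhi and GFPlo, against 14.9% of all genes. Without GFPhi replicate 3 it was 6 of 15, against 41.3%, and all 6 were higher, against 19.5%. These 6 were Psma2, Psma4, Psma7, Psma8, Psmb2 and Psmb3. Psma4, a structural alpha subunit, was 86.5, 85.9 and 69.2 CPM in GFPhi and 71.0, 69.3 and 75.1 in GFPlo, so replicate 3 alone brought the groups to overlap. Its log2 difference was 0.16 with all libraries and 0.27 without that one (edgeR adjusted p = 0.3 and 0.0099). Psma8 was 1.58, 0.99 and 0.484 CPM in GFPhi and 0.444, 0.384 and 0.322 in GFPlo, a difference of 1.40 (SE 0.48, edgeR adjusted p = 0.1), or 1.74 without GFPhi replicate 3 (edgeR adjusted p = 0.0082), at a level far below that of the other alpha subunits.

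Of the 17 subunits of the 19S particle, 0 were called with all libraries and 7 without GFPhi replicate 3, against 41.3% of all genes. All 7 were higher, against 19.5% of all genes. They were the ATPases Psmc2 and Psmc4, the base subunit Psmd2, which binds ubiquitin-like domains, and the lid subunits Psmd8, Psmd11, Psmd12 and Psmd13. Psmd11 was 107, 108 and 96.7 CPM in GFPhi and 91.5, 90.3 and 93.8 in GFPlo, and gave 0.18 with all libraries and 0.23 without replicate 3 (edgeR adjusted p = 0.11 and 0.0096). Of the chaperones, Psmd10 was called higher at 0.24 and Psmd5 lower at -0.21 without that replicate (edgeR adjusted p = 0.038 and 0.03).

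Of the 8 members with a log2 fold change below 0 in GFPhi, 4 lay on chromosome 2. Of the 5 members on chromosome 2 (Psma7, Psmb7, Psmc3, Psmd14 and Psmd5), the core subunit Psma7 was the exception, and their median was -0.16, where the median of all 923 genes tested on that chromosome was -0.18. Of the 34 members outside chromosomes 2, 15 and 17, 31 lay above 0, with a median of 0.08, and without GFPhi replicate 3 all 34 did, with a median of 0.16. Over all 42 members 34 lay above 0, and 37 without GFPhi replicate 3. Over all genes, with chromosomes 2, 15 and 17 included, 52.1% lay above 0 with all libraries and 51% without that replicate. On chromosome 17 the 615 genes tested had a median of -0.15, while Psmb8, Psmb9 and Psmb1 stood at 0.20, 0.26 and -0.07. Without GFPhi replicate 3 these members stood at 0.14, 0.19 and -0.02. The part of gene dosage in the values of the chromosome 2 members was not tested.

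**Figure D4:**
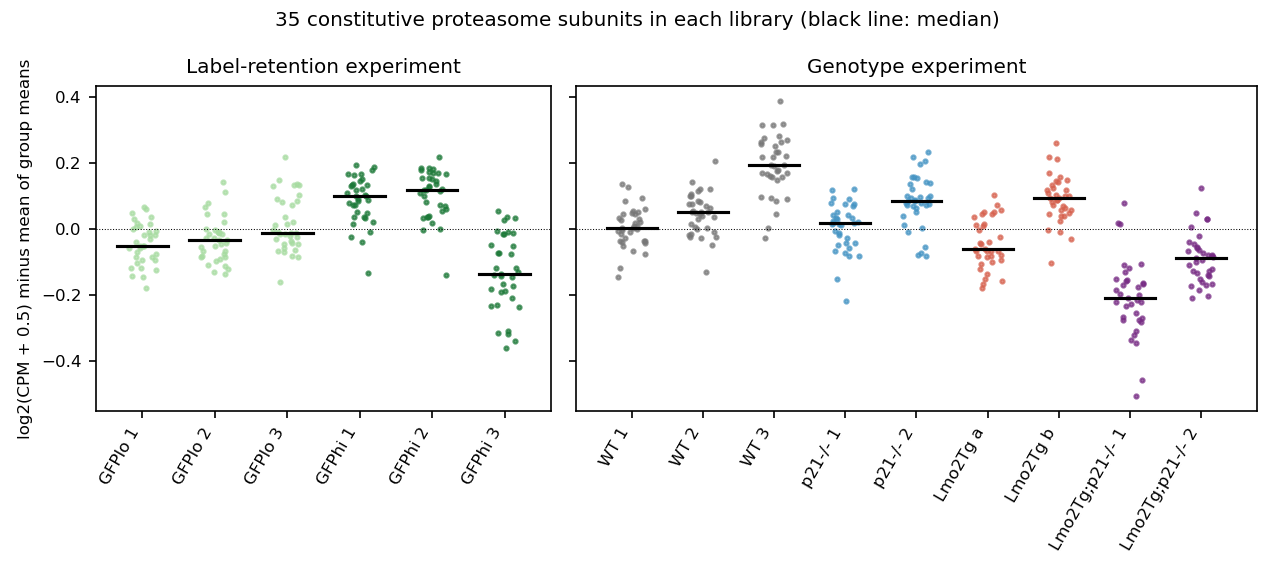
Each point is 1 of 35 constitutive proteasome genes, placed by its log2(CPM + 0.5) minus the mean of the group means of its table, with a black line at the library's median. The median is 0.10 and 0.12 in GFPhi 1 and 2 and -0.13 in GFPhi 3, and it is lowest, at -0.21 and -0.09, in the Lmo2Tg;p21-/- libraries of the genotype table.

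In the genotype experiment the Lmo2Tg;p21-/- libraries held the lowest medians of the constitutive subunits, at -0.21 and -0.09. Lmo2Tg stood at -0.06 and 0.09, p21-/- at 0.02 and 0.08, and WT at 0.01, 0.05 and 0.19, so 1 Lmo2Tg library lay near the higher of the Lmo2Tg;p21-/- libraries. Against Lmo2Tg the median over all 42 members was -0.17, against 0.02 for all genes, or -0.11 without Lmo2Tg library b, and 36 of 42 lay below 0, as did 47.3% of all genes. In 25 of 42 members both Lmo2Tg;p21-/- libraries lay below both Lmo2Tg libraries, against 25.7% of all genes, and in 1, Psmd5, above, against 29.0%. These 25 held all 7 beta subunits, 5 of 8 alpha subunits, 4 of 6 ATPases, 4 of 8 lid subunits, 2 of 3 other base subunits and 3 of 4 activators, and none of the immunosubunits. None passed the test, as given above.

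The members of smallest p in that comparison were Psma2, Psma3 and Psme3. Psma3, an alpha subunit, was 77.7 and 97.7 CPM in Lmo2Tg;p21-/- and 102 and 128 in Lmo2Tg, a log2 difference of -0.39 (SE 0.13, edgeR adjusted p = 0.096). Psma2 was 140 and 146 CPM against 170 and 190, a difference of -0.33 (SE 0.11, edgeR adjusted p = 0.088). Psma2 shares its strand with the overlapping gene AW209491, so its count is uncertain. In the beta ring the differences ran from -0.28 to -0.13, whereas Psmb8 stood at 0.13 and Psmb9 at 0.10.

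Against p21-/-, the Lmo2Tg;p21-/- cells had a median of -0.20 over the members, against 0 for all genes, and 36 of 42 lay below 0, as did 50.4% of all genes. In 32 of 42 members both Lmo2Tg;p21-/- libraries lay lower, against 35.4% of all genes, and in 4 both lay higher, against 35.5%. The 7 members called lower were Psma3, the ATPase Psmc1, the base subunit Psmd1, the lid subunits Psmd3, Psmd7 and Psmd12, and Psme3. Psmc1 was 110 and 152 CPM against 167 and 184 and gave the largest fall, of 0.42 on the log2 scale (SE 0.14, edgeR adjusted p = 0.042). Psmd3 was 195 and 205 CPM against 245 and 253, and fell by 0.31 (SE 0.09, edgeR adjusted p = 0.03). Psmd12 was 93.8 and 103 CPM against 120 in both p21-/- libraries, and fell by 0.29 (SE 0.09, edgeR adjusted p = 0.028). Psmd1 was 139 and 153 CPM against 170 and 195, and fell by 0.32 (SE 0.10, edgeR adjusted p = 0.026), although it shares its strand with the overlapping gene Gm21972. Without Lmo2Tg;p21-/- replicate 1 or without p21-/- replicate 2 the count fell from 8 to 1, which left no member called lower, and without p21-/- replicate 1 it was 3.

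Where p21 was present, few constitutive subunits differed with the transgene. The median of Lmo2Tg over WT was -0.07, against -0.01 for all genes, and it was -0.14 without Lmo2Tg library b and -0.02 without library a. Of the constitutive subunits only the lid subunit Psmd7, which helps to hold the deubiquitinase in place, was called. It was 118 and 129 CPM in Lmo2Tg and 144, 152 and 155 in WT, and fell by 0.28 on the log2 scale (SE 0.07, edgeR adjusted p = 0.013). Without Lmo2Tg library a the value was -0.21 (edgeR adjusted p = 0.12). In Lmo2Tg;p21-/- against p21-/- it fell by 0.25 (SE 0.08, edgeR adjusted p = 0.041). In all, 9 of 42 members lay lower in both Lmo2Tg libraries than in each WT library, against 31% of all genes, and 2, Psme4 and Psmc6, lay higher, against 29.9%. Without the transgene, the loss of p21 gave a median of -0.06, which was 0.01 when WT replicate 3 was left out, and the log2 values of members other than Psma8 lay between -0.16 and 0.12. In 5 members, Psme2, Psmd7, Psmd10, Psmd5 and Psma8, both p21-/- libraries lay below each WT library, against 9.62% of all genes.

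The interaction asks whether loss of p21 acted otherwise on the transgenic than on the non-transgenic cells. Its median over the members was -0.11, against 0.01 for all genes, and it was -0.19 without WT replicate 3 and -0.06 without Lmo2Tg library b. With all libraries 32 of 42 values lay below 0, against 48.3% of all genes, among them all 15 alpha and beta subunits and all 6 ATPases. The smallest p belonged to the ATPase Psmc6, which was 124 and 134 CPM in Lmo2Tg;p21-/-, 150 and 160 in Lmo2Tg, 143 and 166 in p21-/- and 140 to 145 in WT. Only the Lmo2Tg;p21-/- libraries lay below the others, and the interaction was -0.38 (SE 0.12, edgeR adjusted p = 0.14). Psma8 was uneven, at 5.25 and 1.30 CPM in the Lmo2Tg libraries and 0.571 to 2.27 in the others, and no value of it was called.

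The other genes of the pathway were read from fixed lists. Counts called in them are to be read beside the shares of all genes called, given above for each comparison. Of 6 genes for assembly and nuclear import of the core, 0 were called between GFPhi and GFPlo. Without GFPhi replicate 3 the maturation factor Pomp was called, at 157 and 154 CPM against 110 to 117 in GFPlo, with 109 in the library left out, and its difference was 0.45 on the log2 scale (edgeR adjusted p = 0.00079). The assembly chaperone Psmg1 was 32.6 and 34.7 CPM in Lmo2Tg against 39.6 to 52.4 in WT, and fell by 0.46 on the log2 scale (edgeR adjusted p = 0.01). It also fell by 0.53 in Lmo2Tg;p21-/- against p21-/- (edgeR adjusted p = 0.0089). Psmg3 was the only other called gene of that list, lower by 0.57 in Lmo2Tg against WT (edgeR adjusted p = 0.026).

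Of 4 genes of the Nrf1 axis, Nfe2l1, which encodes the factor that induces proteasome genes when proteolysis is impaired, was 113, 110 and 138 CPM in GFPhi against 86.7 to 96.2 in GFPlo. It was higher by 0.41 on the log2 scale (edgeR adjusted p = 0.048) and by 0.30 without replicate 3. In Lmo2Tg it was lower than in WT, by a log2 value of -0.27 (edgeR adjusted p = 0.031). Nfe2l2, the related regulator of the oxidative stress response, was 88.1 and 82.1 CPM in Lmo2Tg;p21-/- and at most 61.5 CPM in each other library of that table, 0.61 above Lmo2Tg and 0.74 above p21-/- (edgeR adjusted p = 0.018 and 0.0012). Of 8 tested proteasome-associated genes, edgeR called 0 between GFPhi and GFPlo, with 1 at an unadjusted p under 0.05. Without GFPhi replicate 3 it called 2, Uchl5 at 0.34 and the inhibitor gene Psmf1 at -0.20 (edgeR adjusted p = 0.0088 and 0.038). In the genotype experiment the phosphatase gene Ublcp1 was called higher in Lmo2Tg than in WT by 0.62, and Uchl5, a deubiquitinase of the 19S particle, and Txnl1 were lower in Lmo2Tg;p21-/- than in p21-/- by log2 values of -0.41 and -0.34 (edgeR adjusted p = 0.013, 0.0079 and 0.019).

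Of 11 genes for ubiquitin and its shuttles, 3 were called between Lmo2Tg and WT, 2 higher and 1 lower. Ubb, a polyubiquitin gene, was 594 and 648 CPM in Lmo2Tg, 451, 487 and 488 in WT, 444 and 471 in Lmo2Tg;p21-/-, and 453 and 496 in p21-/-. Only the Lmo2Tg libraries stood out, 0.39 above WT on the log2 scale (edgeR adjusted p = 0.0035). The shuttle Ubqln2 was also called higher in Lmo2Tg than in WT, by 0.26 (edgeR adjusted p = 0.022). In Lmo2Tg;p21-/- against Lmo2Tg, Ubb fell by 0.44 (edgeR adjusted p = 0.017). Between Lmo2Tg;p21-/- and p21-/- the called genes of the list were the shuttle Rad23b, at -0.62, and Rps27a, at -0.35 (edgeR adjusted p = 0.00071 and 0.025). In GFPhi the shuttle Ubqln2 was called higher by 0.27 over GFPlo and Ufd1l by 0.19 (edgeR adjusted p = 0.047 and 0.05, the latter just under the threshold before rounding). These values were 0.31 and 0.18 without GFPhi replicate 3. In that fit 6 of the 11 genes were called, all higher, against 41.3% of all genes called and 19.5% called higher.

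Of 5 peptide-loading genes, which act on the products of the immunoproteasome, the trimming peptidase gene Erap1 was higher in GFPhi by 0.24 (edgeR adjusted p = 0.04), and by 0.23 without replicate 3. The transporter gene Tap2 was 228 and 174 CPM in Lmo2Tg against 148 to 164 in WT, and rose by 0.38 (edgeR adjusted p = 0.018), and by 0.51 in Lmo2Tg;p21-/- over p21-/- (edgeR adjusted p = 0.0073), while Psmb8 and Psmb9, which lie beside it, were not called higher. Of 4 interferon regulators, Irf1, which induces immunosubunits, was 172, 167 and 163 CPM in GFPhi and 135, 121 and 115 in GFPlo, higher by 0.44 (edgeR adjusted p = 0.016), and by 0.47 without replicate 3. Irf1 was also 279 and 220 CPM in Lmo2Tg against 99.7 to 124 in WT, higher by 1.16 (edgeR adjusted p = 0.00094), in the comparison in which Psmb9 was lower. It was 116 and 109 CPM in Lmo2Tg;p21-/- and 98 and 173 in p21-/-, so that the p21-/- libraries differed widely from each other. Irf8, a regulator in B and myeloid cells, was 4.73 and 3.83 CPM in Lmo2Tg against 10.7 to 11.1 in WT, lower by a log2 value of -1.35 (edgeR adjusted p = 0.00014). Between p21-/- and WT 0 genes of any of these lists were called by edgeR, with 0 at an unadjusted p under 0.05.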

How the data were processed

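The files held counts per gene that the authors deposited in a table for the label-retention and another for the genotype libraries. Per the submitters' processing notes, reads of poly-A RNA were aligned with STAR 2.4.2a to mm10 and counted with featureCounts, and limma is also named. The strand setting is not stated in words, but the name of the label-retention table holds the word Reverse and that of the genotype table the word No, which may be that setting. The tables were counted and normalized separately, so that levels are not compared between them. Among the genotype libraries 1 column matched no labelled sample and was not used, and p21-/- replicate 3 was not analysed here. The study describes independent cohorts of mice for GFPhi and GFPlo and calls the sequenced samples pooled. Its RNA methods describe pools of sorted cells from several different mice of the age used in the genotype experiment, in a passage that also describes microarrays. Whether the replicate libraries of a genotype came from separate pools of mice is not stated. For the genotype libraries p-values therefore measure only the spread between these samples, which may be partly or wholly technical.

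Genes were filtered with filterByExpr, scaled by TMM and fitted over all genes with edgeR 4.0.16 in R 4.3.3, with 1 fit per table (glmQLFit, glmQLFTest). Adjusted p-values are Benjamini-Hochberg over all genes tested, and a gene was called below 0.05. limma 3.58.1 (voom) and DESeq2 1.42.0 were alternatives, as were RLE factors, TMM factors from genes outside chromosomes 2, 15 and 17, other filters, fits of only the groups compared, a replicate block and each library left out. The scripts were tested on simulated data. Gene positions came from GENCODE M21, which held 98.2% of the 22114 genes. Of the 43 members, 14 overlap a protein-coding or long non-coding gene on the opposite strand and 2 a protein-coding gene on their own strand. Other kinds of gene, such as pseudogenes, were not searched for overlap. Library deviations used log2(CPM + 0.5). The within-library CPM ratios were compared by exact permutation tests, two-sided. Members, lists and markers were chosen with earlier results of these data known. Named with values were the immunosubunits and their partners, the activators, Psma8 and Psmb11, up to 5 called members of smallest p per comparison, and 2 called genes per pathway list. Psma2, Psma3, Psma4, Psmc1, Psmc6, Psmd5, Psmd10 and Psmd11 were named after their values were seen, as were Pomp, Uchl5, Psmf1, Tap1 and the single markers. Paaf1 and the marker Trac were not analysed here, and 1 gene of the ubiquitin list and 1 of the B-cell list are not reported here.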

Additional observations from a re-analysis of the deposited data

Results flagged for a closer look

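Among the pathway genes, Irf1 responded to the loss of p21 in another way in transgenic than in non-transgenic cells, by the interaction term of the edgeR fit. Its log2 interaction was -1.43 (SE 0.29, edgeR adjusted p = 0.043). Irf1 differed between the p21-/- libraries, at 98 and 173 CPM. No group was large enough for a test of single outlying libraries.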

How the results depend on the processing

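For members called, the GFPhi comparison gave 1 in the reported fit, 0 over genes of at least 10 CPM, 5 with DESeq2 and 0 to 20 when 1 library was left out. Lmo2Tg;p21-/- against Lmo2Tg gave 0, 3 with DESeq2 and 0 to 1 with a library left out. Lmo2Tg;p21-/- against p21-/- gave 8, and 1 to 9 with a library left out. The cause was not tested, except that fewer libraries were fitted when 1 was left out. The count of 20 came without GFPhi replicate 3, where 41.3% of all genes were called. For the other alternatives that share is not reported here, so their counts of members cannot be set against it. Left-out libraries gave a median log2 fold change of members from -0.26 to -0.17 in the last comparison. Leaving out 1 library at a time, the Psmb8 to Psmb5 difference ran from -0.16 to 0.05 for p21-/- against WT and from -0.26 to -0.14 for Lmo2Tg against WT. The Psmb9 to Psmb6 difference ran from -0.56 to -0.15 for Lmo2Tg against WT, from 0.15 to 0.55 for Lmo2Tg;p21-/- against Lmo2Tg and from -0.06 to 0.18 against p21-/-. The Psmb10 to Psmb7 difference ran from -0.44 to 0 for Lmo2Tg against WT and from 0.45 to 0.66 for GFPhi against GFPlo. Other counts called stayed within 1.5 times, and of the values of single named genes 833 kept their side of the threshold, 25 crossed to called, 20 lost the call and none that was called changed direction.

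With the replicate number as a block, 0 members were called between GFPhi and GFPlo and 28 between Lmo2Tg;p21-/- and p21-/-, 27 of them lower. The share of all genes called in these blocked fits is not reported here. Whether the counts are particular to the members therefore cannot be told. Same-numbered GFPhi and GFPlo libraries correlated at 0.10, -0.10 and 0.08 in their deviations over genes, and 4 of these 6 correlated best with their own number. The other blocked pairs gave -0.25, 0.31 and 0.07. With 2 or 3 libraries a group, such correlations cannot decide whether the numbers pair the libraries, and the main fits took them as unpaired. The block changed no call of p21-/- against WT. No paired analysis was possible for comparisons with Lmo2Tg because its columns carry no number that names 1 sample. With 2 or 3 libraries a group, differences of about 0.2 on the log2 scale were often not detectable.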

Other observations

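The 2 tables gave unlike levels for a few members. Of 42 members, 6 differed by more than 2-fold between the means of the tables (14.3%, against 10.6% of 11252 genes). Psma3 averaged 26.7 CPM in the label-retention table and 109 CPM in the genotype table, Psma5 26.4 and 84.3 CPM, Psmb3 37.3 and 93.2 CPM, and Psme2 52.0 and 128 CPM. Psmb8 went the other way, with 461 and 203 CPM, and Psma8 averaged 0.701 and 1.96 CPM. No comparison above crosses the tables.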
